A study of Mus musculus with 6 samples.

Results

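The cells described here are macrophages of the healing rotator cuff enthesis, the bony insertion of the tendon, that carried transcripts of Arg1, the enzyme arginase 1. Most of these cells also carried transcripts of Spp1, the secreted matrix protein osteopontin, although Spp1 was no condition of their selection. They were taken from a single-cell RNA-sequencing experiment on tissue harvested 7 days post injury (dpi) from adult mice of 2 genotypes, with 3 libraries from wild-type C57BL/6 mice and 3 libraries from Nlrp3-/- mice, in which the inflammasome sensor gene Nlrp3 was deleted in the whole animal. All mice of both genotypes had undergone injury and repair of the rotator cuff, so that no uninjured or sham tissue entered the comparison. The n of each genotype in the study equals its number of libraries, entheses were pooled before the cells were loaded, and neither how many animals were pooled for a library nor their sex is given in the sources used here. For the second and the third knockout library, one label names a different Nlrp gene (Nlrp4 and Nlrp5) while the title states Nlrp3 knockout, and the titles were followed.

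The members were selected on their own counts of unique molecular identifiers (UMIs, one per captured mRNA molecule). A barcode was taken when it held at least 1000 UMIs and 200 genes with at most 10% mitochondrial UMIs, at least 3 Arg1 UMIs, at least 2 UMIs of the macrophage genes Csf1r, Adgre1 and Cd68, fewer than 10 of the MHC class II genes H2-Aa, H2-Ab1 and H2-Eb1, and none of the osteoclast gene Atp6v0d2 or of the division genes Mki67 and Top2a. Collagen transcripts (Col1a1, Col1a2, Col3a1) had to stay under 1% and the neutrophil transcripts S100a8 and S100a9 under 2% of its UMIs. Of 85339 barcodes past the limits on UMIs, genes and mitochondrial share, 2952 had at least 3 Arg1 UMIs and 1634 met every condition. They came to 220, 427 and 194 barcodes in the wild-type libraries and to 336, 103 and 354 in the knockout libraries, with a median of 5056 to 7909 UMIs per barcode. No barcode sequence occurred among the members of more than 1 library. The 15 genes of the rule were left out of every test, and their levels are given as description. P-values measure the spread between libraries, which may in part be technical.

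Arginase 1 turns arginine into ornithine and urea, and macrophages switch it on in wounds, tumours and granulomas. Ornithine feeds the synthesis of polyamines and proline, and arginase competes for arginine with the inducible nitric oxide synthase Nos2. Macrophages with abundant Spp1 accumulate in many injured and fibrotic tissues, where osteopontin binds integrins and CD44 on neighbouring cells, and TREM2 is a lipid-sensing receptor that such cells often share.

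The label names Arg1, Spp1, Cxcl3, Mmp12 and Trem2 as markers, a choice made with earlier results of these data known, so their levels and differences are no independent support for it. These levels are described library by library, and no criterion was set for whether the label holds. Levels are counts per 1000000 UMIs (CPM) of the members of a library summed together. Spp1 stood at 7877, 8317 and 11501 CPM in the wild-type libraries and 11728, 14738 and 18625 CPM in the knockout libraries. Cxcl3, a chemokine that attracts neutrophils through CXCR2, reached 349.9, 1034 and 2178 CPM in the wild-type libraries and 5176, 707 and 591 CPM in the knockout libraries. Mmp12, the macrophage elastase, was measured at 27.9, 45.4 and 193 CPM in the wild-type libraries and 671, 138 and 235 CPM in the knockout libraries. Cxcl3 and Mmp12 were thus far more uneven between libraries than Spp1, with the first knockout library highest for both. Trem2 stood at 718, 605 and 559.6 CPM in the wild-type libraries and 384, 704 and 804 CPM in the knockout libraries, which was below the level of the C1q macrophages of the same library in every case. Of the macrophage genes that the rule used, Csf1r and Adgre1 varied little by comparison, at 207 to 225 CPM and 166 to 263 CPM. The rule set a minimum on the summed UMIs of these and Cd68, so part of this evenness may come from the selection. Arg1 itself, which the rule used, ranged over 1262 to 3189 CPM.

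Marker transcripts of other cell types were present at low levels. The 8 neutrophil markers fixed for this check summed to 803 to 2139 CPM in the members, and the members of the first knockout library had the most. The free RNA of near-empty barcodes (at most 100 UMIs each) held 26511 to 84786 CPM of them. S100a8 and S100a9 are among these markers and were limited by the rule, so the low sum is in part set by the selection. The 7 fibroblast markers came to 259 to 1032 CPM, against 8933 to 28104 CPM in free RNA, and were 259 to 549 CPM in the wild-type and 437 to 1032 CPM in the knockout members. They include Col1a1, Col1a2 and Col3a1, which the rule limited, so the same holds for this sum. Markers of T and NK cells stayed at or below 23.0 CPM and those of dendritic cells at or below 4.20 CPM. Endothelial markers summed to 34.9 to 130 CPM and erythroid markers to 8.51 to 83.8 CPM. The 5 mast cell and basophil markers were at 103 CPM in the first wild-type library and at or below 4.72 CPM in the others. The 5 osteoclast markers summed to 236 to 414 CPM in the members. They summed to 160 to 278 CPM in C1q macrophages and 31.8 to 93.9 CPM in Ly6c2 Ccr2 monocytes, both defined below. The members exceeded the C1q macrophages in all but the first wild-type library. Of these 5 markers, 2 were at 0 throughout in all these groups, 1 of which the rule excluded. The first knockout library stood apart over all its barcodes, with a median of 2069 UMIs where the other libraries had 4874 to 7421, although its members had a median of 5286 UMIs. Free RNA also carried Spp1, at 1094 to 3376 CPM, and Cxcl3, at 13.6 to 418 CPM, with the first knockout library highest for both.

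The macrophage barcodes just inside and just outside the Arg1 minimum were set side by side. The 356 macrophage barcodes with 2 Arg1 UMIs had a median Spp1 level of 8521 CPM over libraries, and the 267 with exactly 3 had 7573 CPM. Trem2 was at 785 CPM with 2 Arg1 UMIs and at 710.1 CPM with 3, C1qa at 1859 and 1619.8 CPM, Cxcl3 at 159.7 and 247 CPM, and Mmp12 at 25.5 and 43.2 CPM. The medians hide different directions within the libraries. From 2 to 3 Arg1 UMIs, Spp1 and Cxcl3 were higher in the 3 wild-type and lower in the 3 knockout libraries, Mmp12 and Trem2 were lower in 4 of 6 libraries and C1qa in 3 of 6. Mmp12 spread over 9.87 to 614 CPM between libraries with 2 Arg1 UMIs and over 0 to 227 CPM with 3.

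The first comparison asked whether deletion of Nlrp3 altered the abundance of these cells. Among all barcodes that met every condition except that on Arg1, which numbered 9867, the members made up 12.5%, 17.5% and 18.4% in the wild-type libraries and 19.6%, 9.98% and 19.0% in the knockout libraries. Both the lowest and the highest share belonged to knockout libraries, and the groups overlapped throughout. The means were 0.0626 percentage points apart (exact two-sided permutation test over the 6 libraries, p = 1, where 3 against 3 libraries cannot give a p below 0.1). A 95% Wilson interval on a single library spanned 8.30% to 12.0% for the second knockout library and 17.8% to 21.6% for the first, which covers counting error only. As in any dissociated tissue, fewer cells of a type and less Arg1 RNA per cell cannot be told apart in such a share.

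**Figure D1:**
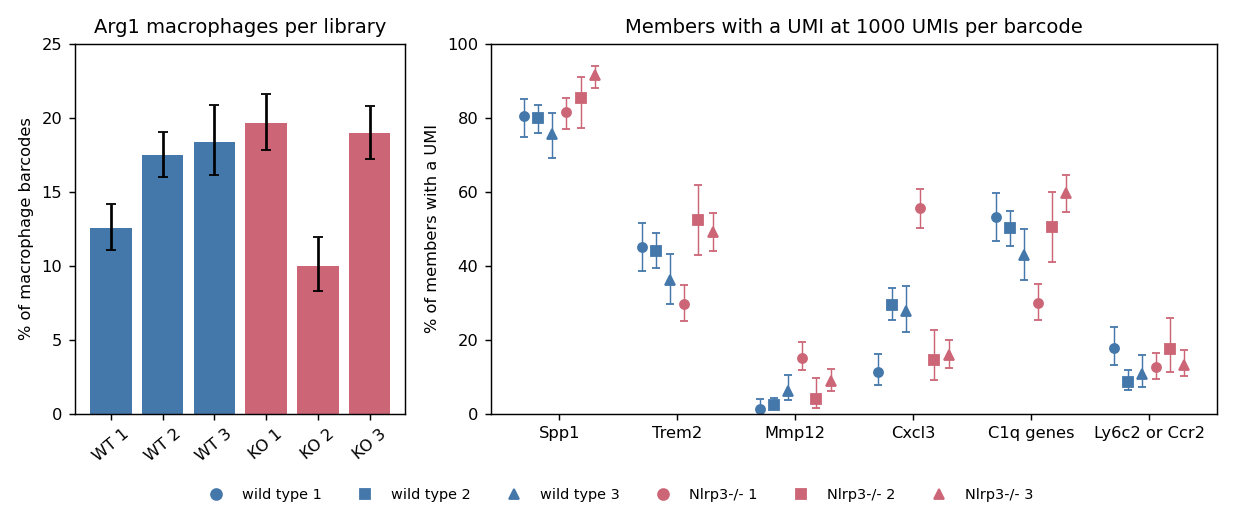
Share of Arg1 macrophages among macrophage barcodes in each library (left, percent, bars with 95% Wilson intervals) and share of members with at least 1 UMI of the named genes after each was thinned to 1000 UMIs (right, percent, one point per library with 95% Wilson intervals). The shares of Arg1 macrophages overlap between genotypes, members with Spp1 lie between 75.8% and 91.5%, and members with Cxcl3 reach 55.7% in the first knockout library.

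The population was not uniform. Each member was thinned to 1000 UMIs so that deeper barcodes did not count as richer, and the share with at least 1 UMI was taken. Spp1 was found in 80.5%, 79.9% and 75.8% of wild-type members and in 81.5%, 85.4% and 91.5% of knockout members. Every knockout library lay above every wild-type library (difference 7.47 percentage points, exact permutation p = 0.1, the smallest possible, and 0.6 after adjustment over the 6 gene groups examined). The difference was 4.80 points without the third knockout library and 4.80 to 9.79 points with any 1 library left out. The groups overlapped once barcodes were not thinned, with a difference of 5.71 points, and also at an Arg1 minimum of 6 UMIs, with 7.81 points (exact permutation p = 0.3). On summed counts, the genotype difference of Spp1 was estimated smaller in the members than in C1q macrophages. The interaction term, fitted as described below, was -0.40 ± 0.26 on the log2 scale and did not pass. A genotype difference in Spp1 is thus not called particular to the members. T cells of the same libraries, which can express the gene when activated, showed it in 5.11% to 6.45% of wild-type and 11.4% to 19.6% of knockout barcodes when thinned to the same 1000 UMIs, and how much of that is free RNA was not tested. Neutrophils showed it in 11.1%, 19.6% and 19.1% of wild-type and 39.2%, 18.0% and 19.0% of knockout barcodes, where the genotypes overlapped and the first knockout library alone stood above the wild type.

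Cxcl3 marked a minority in 5 libraries. It was detected in 11.4%, 29.5% and 27.8% of wild-type members and in 55.7%, 14.6% and 15.8% of knockout members, against 0.535% to 2.28% of C1q macrophages and 0% to 5.69% of T cells. Neutrophils, which can express the gene, had it in 1.83%, 10.3% and 7.21% of wild-type and 15.8%, 0.356% and 0.188% of knockout barcodes. The highest share was that of the first knockout library in members, T cells and neutrophils alike. Most members with Cxcl3 also had Spp1: after thinning they were found in the same barcode in 10% to 44.0% of members per library, Spp1 alone in 37.5% to 76.6% and Cxcl3 alone in 0.847% to 12.4%. Spp1 was found in 75.8% to 91.5% of all members per library, and whether the pair went together beyond that was not tested. At least 1 UMI of C1qa, C1qb or C1qc, the chains of complement C1q that resident-like macrophages produce, was present in 53.2%, 50.1% and 42.8% of wild-type and 30.1%, 50.5% and 59.6% of knockout members. Without thinning, 38.7% to 43.6% of wild-type members carried 10 or more C1q UMIs, the level that defined the C1q macrophages used for comparison below, and 19.0%, 45.6% and 50.6% of knockout members did. The monocyte genes Ly6c2 and Ccr2 reached 3 UMIs in 8.20% to 22.3% of members. None of the 5 gene groups besides Spp1 separated the genotypes (exact permutation p = 0.2 to 0.9).

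Members with more Arg1 were different in other genes as well. Within each library the members were ordered by Arg1 per UMI and divided into 3 parts of like size, and the levels of the parts with the most (Arg1-high) and the least (Arg1-low) were compared as a description, on a log2 scale with 10 CPM added. Of 2811 genes that reached 50 CPM, 234 were higher in the Arg1-high part in all 6 libraries and 414 were lower in all 6. Of the genes that were higher, the 8 with the largest mean difference were Cxcl3 (3.53), Mmp12 (2.25), Nos2 (1.97), the monocyte attractant Ccl2 (1.72), the co-stimulatory receptor Tnfrsf9 (1.70), the uridine phosphorylase Upp1 (1.69), the prostaglandin E synthase Ptges (1.67) and the oxygen-sensing prolyl hydroxylase Egln3 (1.65).

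Nos2, the enzyme that shares its substrate with arginase, followed Arg1 in level but came largely from a pair of libraries. In the Arg1-high part it was at 9.47, 50.9 and 817 CPM in the wild-type libraries and 441, 20.7 and 15.3 CPM in the knockout libraries, and in the Arg1-low part at 0, 1.90 and 19.3 CPM in the wild-type libraries and 262, 0 and 0 CPM in the knockout libraries. The third wild-type and the first knockout library were the high ones. Cxcl3 was higher in the Arg1-high part of every library, going from 6.46 to 1467 CPM in the second knockout library and from 2036 to 7683 CPM in the first. By group, 14 of 14 glycolytic genes and 12 of 15 hypoxia-response genes at 50 CPM were higher in the Arg1-high part in all 6 libraries, as were 8 of 14 chemokines, where 234 of 2811 genes in all were.

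The Arg1-low part had more of the C1q programme. C1qa averaged 1520.2 ± 334 CPM (SD, n = 6) in the Arg1-low part and 595 ± 293 CPM in the Arg1-high part, and apolipoprotein E (Apoe) averaged 9759.7 ± 2073 and 3609 ± 1411 CPM. Both were lower in the Arg1-high part of every library. The Arg1-low part was also deeper, at a median of 5972 to 8868 UMIs against 4505 to 6927 in the Arg1-high part, and the part of depth in these differences was not tested.

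Members in which Cxcl3 was detected after thinning to 1000 UMIs were also compared, as a description, with those in which it was not, some of which held Cxcl3 at their full depth. There were 463 of the first kind and 1171 of the second. Of 2812 genes at 50 CPM, 226 were higher and 420 lower in the Cxcl3-positive members of all 6 libraries. The genes named here were picked for the size of their difference, after the values were seen. The interleukin-1 precursors were among them, Il1a with a mean log2 difference of 2.02 and Il1b with 1.92, going from 792 to 2881 CPM. Slpi (1.92), Tnfrsf9 (1.93), Ptges (1.73) and the matrix glycoprotein thrombospondin 1 (Thbs1, 1.58) were higher too. The arginine transporter Slc7a2 (1.36) and Nos2 (1.40) were higher by smaller amounts. C1qa (-2.93), Apoe (-2.48), Selenop (-1.99) and Gpnmb (-1.92) were lower, Apoe going from 8330.0 to 1915 CPM. By list, 8 of 13 inflammatory genes, 10 of 14 glycolytic genes and 9 of 15 hypoxia genes were higher in all 6 libraries, and 9 of 21 lysosomal genes were lower. Median depth was 4501 to 7740 UMIs in the Cxcl3-positive and 4914 to 8011 UMIs in the other members. The second knockout library contributed 15 of the Cxcl3-positive members.

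**Figure D2:**
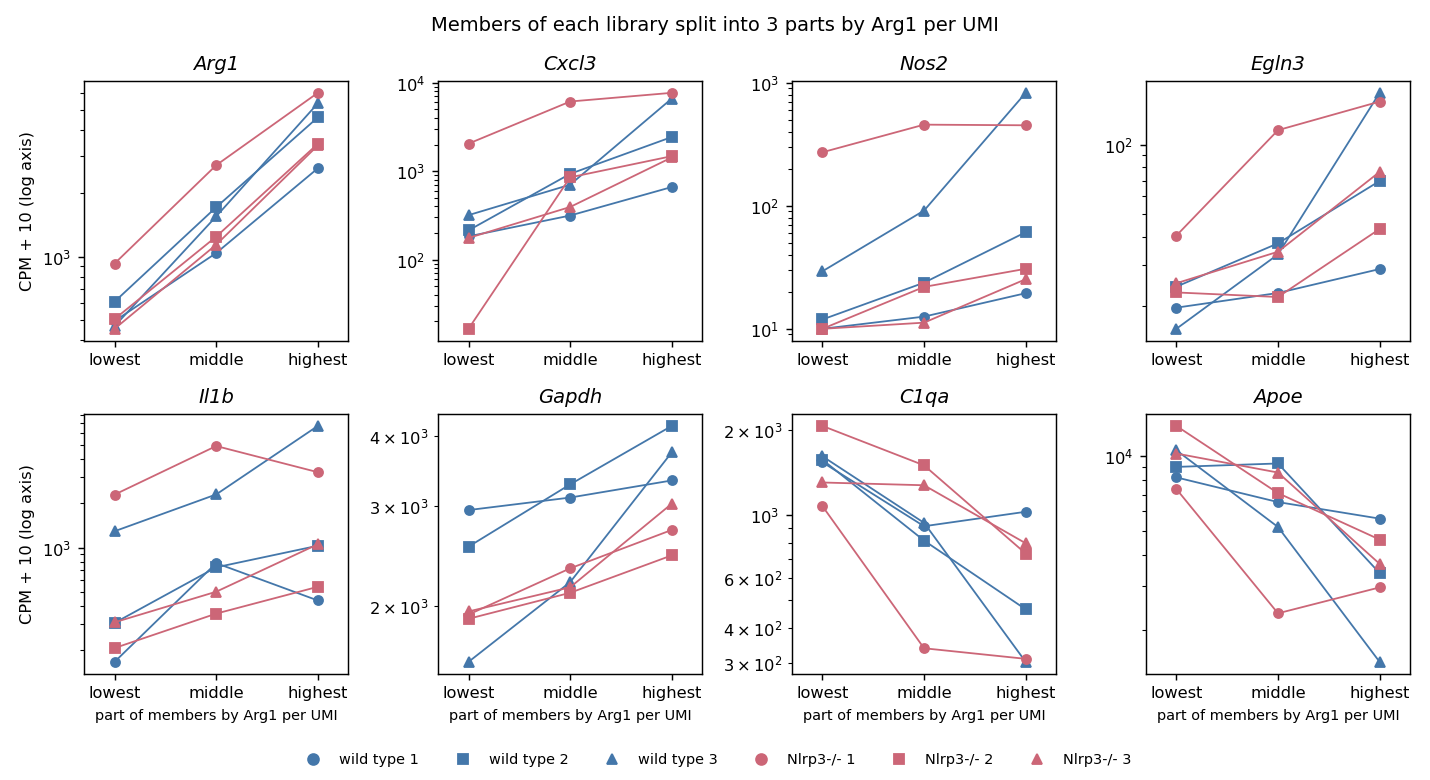
Level (CPM + 10, log axis) of 8 genes in the Arg1-low, Arg1-middle and Arg1-high part of members by Arg1 per UMI, one line per library. Arg1 orders the 3 parts by construction. Cxcl3, Egln3 and Gapdh are higher and C1qa and Apoe lower in the Arg1-high than in the Arg1-low part of every library, and Nos2 is highest in the third wild-type and the first knockout library.

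The next comparison set the members against the C1q macrophages of the same libraries, 2974 barcodes that met the same conditions but held no Arg1 UMI and at least 10 UMIs of C1qa, C1qb and C1qc. Compared with them, Arg1 macrophages were richer in inflammatory chemokines and cytokines, in hypoxia and glycolysis genes and in fibronectin, and poorer in apolipoprotein E, Selenop and Gas6. Summed counts of each library were fitted with edgeR's quasi-likelihood test, with library as a block and Benjamini-Hochberg adjustment. Log2 fold changes are given ± SE, and levels as the mean ± SD over the 6 libraries of both genotypes. Of 9084 genes tested, 2542 passed (28%), 1398 higher (15.4%) and 1144 lower (12.6%), with a median log2 fold change of 0.00308 over all genes. Without the first knockout library 2382 passed, and at a common depth of 1000 UMIs per barcode, where 4281 genes could be tested, 934 did.

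Genes were ranked that reached at least 50 CPM in one of the groups and had the same direction in every library. Outside those of the rule, the largest rises were led by secreted proteins. Cxcl3 averaged 1673 ± 1832 CPM against 21.0 ± 16.1 CPM in C1q macrophages (log2 fold change 6.10 ± 0.57, adjusted p = 9.70e-06). Il1a, the interleukin-1α precursor, averaged 106 ± 133 against 3.69 ± 2.66 CPM (log2 fold change 4.54 ± 0.38, adjusted p = 4.28e-06). The protease inhibitor Slpi ranged over 118 to 3446 CPM in the members and 12.4 to 71.1 CPM in C1q macrophages. Slpi is abundant in neutrophils too, and the neutrophil-gated barcodes of these libraries held 755 to 1717 CPM, so that the part of neutrophil RNA in its rise was not tested. Inhba, a subunit of activin A, the coagulation factor F10 and the proteoglycan Vcan followed, with log2 fold changes of 3.56 ± 0.62, 3.17 ± 0.19 and 2.80 ± 0.11 (adjusted p = 0.00109, 5.34e-07 and 5.13e-08). Vcan was the steadiest of them, at 128 to 166 CPM in the members and 15.7 to 32.6 CPM in C1q macrophages, without overlap. Upp1 and the formyl peptide receptor Fpr1 rose by 3.43 ± 0.38 and 3.05 ± 0.40. AA467197, which was kept out of the ranking because its symbol is an accession number, also lay in this range, at 456 ± 297 against 34.0 ± 10.3 CPM (log2 fold change 3.72 ± 0.29, adjusted p = 2.74e-06). Not all of these genes were also higher than in the Ly6c2 Ccr2 monocytes compared further below. Against those, Vcan and F10 were lower (log2 fold changes -1.52 ± 0.09 and -0.74 ± 0.19) and Slpi did not pass (0.76 ± 0.68). Cxcl3, Il1a, Inhba, Upp1, Fpr1 and AA467197 were higher there too.

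The genes that fell most included several that tissue-resident macrophages carry. The chemokine Ccl8, a monocyte attractant, fell from 775 ± 437 to 20.4 ± 19.2 CPM (log2 fold change -5.18 ± 0.29, adjusted p = 2.58e-07). The adhesion molecule Vcam1, the Fc receptor-like gene Fcrls and the bridging molecule Gas6, which links dying cells to TAM receptors, fell with log2 fold changes of -3.88 ± 0.22, -3.71 ± 0.24 and -2.80 ± 0.15. The membrane proteins Tmem176a and Tmem176b were at 22.8 ± 5.55 and 26.9 ± 5.02 CPM in the members and at 271 ± 127 and 319.5 ± 134 CPM in C1q macrophages. Selenop, the selenium carrier, fell from 1748 ± 439.8 to 231 ± 38.9 CPM (log2 fold change -2.77 ± 0.12, adjusted p = 6.22e-08), and the dicarboxylate transporter Slc13a3 fell by 3.28 on the log2 scale. No gene named in this paragraph entered a gate, but C1q macrophages were picked for high C1q counts, so a difference of Arg1 macrophages and a difference that comes with the choice of C1q-rich barcodes cannot be told apart here.

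Spp1 was higher in Arg1 macrophages in all 6 libraries. It averaged 12131 ± 4054 CPM against 4287 ± 1936 CPM (log2 fold change 1.72 ± 0.14, adjusted p = 3.64e-06). Of the list of lipid-handling and TREM2-associated genes, 8 of 21 tested members rose, 8 fell and 5 did not pass (median log2 fold change -0.06). The risers were led by the tetraspanin Cd9, at 1414 ± 435 against 503 ± 280.4 CPM (log2 fold change 1.78 ± 0.15, adjusted p = 4.27e-06). Apoe fell from 23949.9 ± 4964 to 6949 ± 1506 CPM (log2 fold change -1.66 ± 0.14, adjusted p = 5.06e-06), and Trem2 fell less (log2 fold change -0.47 ± 0.14, adjusted p = 0.0264). The call on Trem2 was lost under 3 of 15 alternatives, among them those without the third wild-type or the second knockout library (-0.43 and -0.47). Mmp12 was higher (log2 fold change 2.93 ± 0.46, adjusted p = 5.34e-04), with library values between 4.03 and 49.5 CPM in C1q macrophages, and did not pass within the wild-type libraries alone (adjusted p = 0.0515, edgeR).

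Energy and oxygen genes moved together. Of the hypoxia-response list, 18 of 18 tested members rose, 0 fell and 0 did not pass, with a median of 1.06, and of the glycolysis list, 16 of 17 tested members rose, 0 fell and 1 did not pass, with a median of 1.19. Egln3 rose from 3.91 ± 1.12 to 40.1 ± 28.8 CPM (log2 fold change 3.42 ± 0.27, adjusted p = 2.56e-06), and the lactate exporter Slc16a3 from 47.0 ± 8.93 to 206 ± 25.2 CPM. Hif1a, the oxygen-regulated transcription factor, and Mif, a cytokine that HIF induces, rose by 0.89 ± 0.08 and 1.27 ± 0.09 on the log2 scale. Phosphoglycerate kinase (Pgk1) stood at 587, 708 and 648 CPM in the wild-type libraries and 713, 559 and 647 CPM in the knockout libraries, with no overlap with the 166 to 254 CPM of C1q macrophages. Enolase (Eno1), pyruvate kinase (Pkm) and Gapdh rose by 1.68 ± 0.08, 1.32 ± 0.08 and 1.28 ± 0.08 (adjusted p = 2.08e-07, 3.50e-07 and 5.96e-07).

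Chemokines and cytokines were the other large group. For the chemokine list, 11 of 17 tested members rose, 3 fell and 3 did not pass (median 1.34), and for inflammatory cytokines and mediators 12 of 15 tested members rose, 2 fell and 1 did not pass (median 1.05). Cxcl2, another CXCR2 ligand, reached 4349.6, 8241 and 9802 CPM in the wild-type libraries and 11413, 2171 and 4119 CPM in the knockout libraries, against 1276 to 2686 CPM in C1q macrophages (log2 fold change 1.67 ± 0.21, adjusted p = 1.00e-04). Il1b, the interleukin-1β precursor, was at 404, 624 and 3112 CPM in the wild-type libraries and 3379, 344 and 571 CPM in the knockout libraries (log2 fold change 2.08 ± 0.34, adjusted p = 6.27e-04). The third wild-type and the first knockout library were several times higher than the rest, and these were also the libraries with the most Cxcl3 and Nos2. Acod1, which makes itaconate, and the NF-κB inhibitor Nfkbia rose by 2.51 ± 0.45 and 0.65 ± 0.11, while the chemokine Pf4, best known from platelets, rose by 0.58 ± 0.07.

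Within the arginine and polyamine list, 7 of 14 tested members rose, 0 fell and 7 did not pass, Arg1 being left out. The arginine transporter Slc7a2 was at 33.7 ± 34.5 against 3.81 ± 1.76 CPM (log2 fold change 2.92 ± 0.40, adjusted p = 1.76e-04) and argininosuccinate synthase (Ass1), which regenerates arginine, at 126 ± 43.0 against 37.5 ± 10.8 CPM (log2 fold change 1.85 ± 0.20, adjusted p = 3.73e-05). The most abundant members, the polyamine regulators Oaz1 and Sat1, did not pass, at 1369.6 ± 122 and 689 ± 104 CPM in Arg1 macrophages and 1501 ± 92.5 and 859 ± 175 CPM in C1q macrophages.

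Matrix genes and growth factors gave a mixed picture. Of the matrix list, 16 of 22 tested members rose, 2 fell and 4 did not pass (median 1.27). Fibronectin (Fn1) stood at 3200.1, 2568 and 3027 CPM in the wild-type libraries and 2447, 3189.8 and 4238 CPM in the knockout libraries, against 375 to 747 CPM in C1q macrophages (log2 fold change 2.57 ± 0.11, adjusted p = 8.92e-08). The collagenolytic protease Ctsk rose from 64.2 ± 20.7 to 172 ± 56.8 CPM, although 10 of the 21 tested lysosomal genes fell and 2 rose. Cathepsin L (Ctsl) was the other that rose (0.86 ± 0.08) and cathepsin B (Ctsb) fell (-0.49 ± 0.07). Among growth factors 4 of 13 rose and 5 fell. Vegfa, the main driver of vessel growth, rose from 87.9 ± 45.0 to 233 ± 135 CPM (log2 fold change 1.48 ± 0.21, adjusted p = 2.30e-04), and progranulin (Grn) fell (log2 fold change -0.41 ± 0.06, adjusted p = 3.13e-04). Epiregulin (Ereg) had 188 UMIs over the members and 2 over all C1q macrophages.

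Genes of alternative activation did not share a direction, with 3 higher, 3 lower and 5 not past the test. The mannose receptor Mrc1 fell (log2 fold change -1.80 ± 0.12, adjusted p = 6.25e-07), while the transglutaminase F13a1, the transcription factor Klf4 and the chemokine Ccl24 rose by 0.92 ± 0.09, 0.43 ± 0.08 and 1.73 ± 0.51. The call on Ccl24 was lost under 5 of 14 alternatives, among them those without the first or the second wild-type or the third knockout library (1.58, 1.09 and 1.63). Of complement and efferocytosis genes, 1 of 13 tested members rose, 6 fell and 6 did not pass. Axl, a receptor for Gas6, fell (log2 fold change -2.25 ± 0.16, adjusted p = 1.55e-06) and the C5a receptor C5ar1 rose by 0.29 ± 0.08. The call on C5ar1 was lost under 3 of 15 alternatives, among them those without the first wild-type or the third knockout library (0.25 and 0.21). Of monocyte identity genes, 12 of 16 tested members rose, 0 fell and 4 did not pass, S100a4 and Cebpb being the most abundant with log2 fold changes of 1.14 ± 0.15 and 0.94 ± 0.09. Interferon-stimulated genes passed in 5 of 19 cases, all higher, where 28% of all genes tested passed. Isg15 was at 1.07 ± 0.22 and Ifitm3 at 0.79 ± 0.13 on the log2 scale.

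Most oxidative stress and iron genes were also higher, and lipid-mediator genes moved both ways. For oxidative stress and iron, 14 of 17 tested members rose, 2 fell and 1 did not pass (median 0.82). The ferritin chains Fth1 and Ftl1 were among the most abundant transcripts, Fth1 at 31809 to 76278 CPM against 21184 to 25326 CPM (log2 fold change 1.08 ± 0.14, adjusted p = 1.17e-04) and Ftl1 with a log2 fold change of 0.33 ± 0.05. The cystine transporter Slc7a11 and the peroxidase Prdx6 rose by 2.22 ± 0.32 and 2.04 ± 0.17. Of genes for unsaturated fatty acid and eicosanoid synthesis, 6 of 16 tested members rose, 4 fell and 6 did not pass. Cyclooxygenase-2 (Ptgs2) rose (log2 fold change 1.80 ± 0.36, adjusted p = 0.00294), as did the 5-lipoxygenase activator Alox5ap (0.74 ± 0.10), while the prostaglandin D synthase Hpgds fell (log2 fold change -2.61 ± 0.16, adjusted p = 5.62e-07). Genes that tissue dissociation can induce were higher in 8 of 21 cases and lower in 1, including Ier3 (1.08 ± 0.12) and Klf2 (0.67 ± 0.11), and their part in the other differences was not tested.

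The inflammasome list was examined gene by gene because the study deleted its sensor. Among 13 genes tested, 3 were higher in Arg1 than in C1q macrophages (Il1b, Nlrp3 and caspase-1, Casp1) and 4 lower (Il18, P2rx7, Nek7 and Txnip). Nlrp3 was at 92.2, 158 and 308 CPM in wild-type Arg1 macrophages and at 64.5, 87.4 and 93.1 CPM in C1q macrophages of the same libraries (log2 fold change 1.18 ± 0.20, adjusted p = 0.00237). It was at 0 in all knockout libraries, so its difference rests on the wild-type libraries. Casp1 rose slightly (0.38 ± 0.12), a call lost under 7 of 15 alternatives, including those without the first wild-type library and without each knockout library (0.26 to 0.39). The interleukin-18 precursor Il18 fell (log2 fold change -0.99 ± 0.13, adjusted p = 1.16e-04), as did the ATP receptor P2rx7 (-0.57 ± 0.13), the Nlrp3 partner Nek7 (-0.43 ± 0.10) and Txnip (-0.43 ± 0.07). The call on P2rx7 was lost within the wild-type libraries alone, and that on Nek7 within the libraries of either genotype taken alone. The adaptor Pycard was at 268 ± 16.4 and 284 ± 20.8 CPM, and the pore protein Gsdmd at 34.4 ± 6.67 and 37.7 ± 8.88 CPM, neither past the test.

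**Figure D3:**
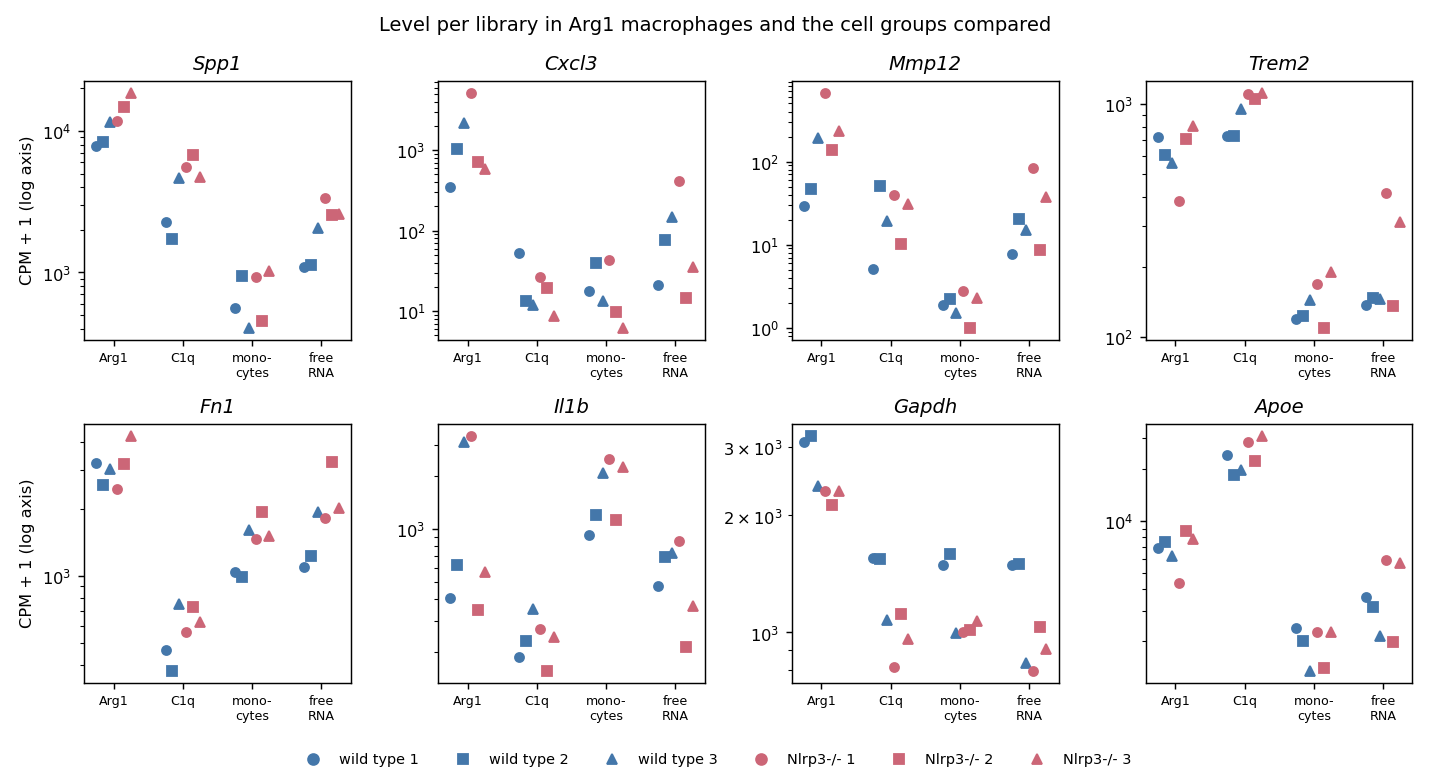
Level (CPM + 1, log axis) of 8 genes in each library, in Arg1 macrophages, C1q macrophages, Ly6c2 Ccr2 monocytes and the free RNA of near-empty barcodes. Spp1, Cxcl3, Fn1 and Gapdh are higher in the Arg1 macrophages than in the C1q macrophages of all 6 libraries, Apoe and Trem2 are lower, and Il1b is highest in the Arg1 macrophages of the third wild-type and the first knockout library.

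Ly6c2 Ccr2 monocytes were 2366 barcodes with no Arg1, at least 3 UMIs of Ly6c2 and Ccr2 and fewer than 10 C1q UMIs. Monocytes can become macrophages in a wound, and the origin of these barcodes was not tested. Set against these monocytes, the members had more of most lipid-handling, lysosomal and hypoxia genes and less of most monocyte genes. The same test on 8614 genes called 4530 (52.6%), of which 2328 were higher (27%) and 2202 lower (25.6%), with a median of 0.0249. Without the first knockout library 4581 genes passed, and 1793 of 4137 passed at 1000 UMIs per barcode.

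Among genes of at least 50 CPM, the largest rises were Mmp12, Cxcl3 and Pf4. Mmp12 had 11 UMIs over all monocytes and averaged 219 ± 236 CPM in the members (log2 fold change 7.44 ± 0.29, adjusted p = 3.84e-09). Cxcl3 was at 20.6 ± 15.8 CPM in monocytes (log2 fold change 6.04 ± 0.38, adjusted p = 8.27e-08). Pf4 rose from 125 ± 76.4 to 5264 ± 1701 CPM (log2 fold change 5.68 ± 0.30, adjusted p = 2.01e-08). The mucin-like protein Pdpn, the leukotriene C4 synthase Ltc4s and the scavenger receptor Cd36 followed, with log2 fold changes of 5.09 ± 0.23, 5.08 ± 0.24 and 5.06 ± 0.19, then the ubiquitin ligase Rnf128 (4.98 ± 0.21) and Pmp22 (4.95 ± 0.25). The genes that fell most included several that circulating monocytes carry, in a comparison group picked for its monocyte genes. Plac8 fell from 3589 ± 629.7 to 128 ± 74.3 CPM (log2 fold change -4.88 ± 0.20, adjusted p = 4.24e-09). Ifitm6, Ramp1, Cd177, Gpr141 and Rnase6 fell with log2 fold changes of -5.04 ± 0.18, -4.17 ± 0.13, -4.10 ± 0.22, -3.87 ± 0.16 and -3.79 ± 0.25. The cytokine Il6 also fell, from 172 ± 146 to 11.9 ± 11.9 CPM (log2 fold change -3.72 ± 0.29, adjusted p = 4.60e-07).

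Lipid-handling and lysosomal genes were higher nearly throughout. Of the first list, 19 of 21 tested members rose, 1 fell and 1 did not pass (median 2.17), and of the second 18 of 21 tested members rose, 0 fell and 3 did not pass (median 0.78). Spp1 rose from 721 ± 279.5 to 12131 ± 4054 CPM (log2 fold change 4.19 ± 0.23, adjusted p = 2.49e-08), with no overlap between 406 to 1027 CPM and 7877 to 18625 CPM. Trem2, lower than in C1q macrophages, was higher than in monocytes (log2 fold change 2.24 ± 0.16, adjusted p = 1.99e-07). Apoe and the melanosomal glycoprotein Gpnmb rose by 1.92 ± 0.17 and 4.22 ± 0.15. Cathepsins L and B rose by 3.01 ± 0.13 and 2.16 ± 0.09, cathepsin K by 3.42 ± 0.27 and cathepsin S (Ctss) by 0.96 ± 0.10.

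Hypoxia and glycolysis genes were higher than in monocytes too. The hypoxia list gave 17 higher and 0 lower of 18 (median 1.47), and the glycolysis list 14 and 0 of 17 (median 1.20). Mif rose from 159 ± 42.9 to 895 ± 232 CPM (log2 fold change 2.58 ± 0.09, adjusted p = 1.53e-09). Egln3, the mitophagy receptor Bnip3 and Hif1a rose by 2.93 ± 0.33, 2.67 ± 0.19 and 1.11 ± 0.08. The glycolytic genes Tpi1, Aldoc, Gapdh and Pkm rose by 2.02 ± 0.10, 2.37 ± 0.30, 1.20 ± 0.07 and 1.03 ± 0.07. Haem oxygenase 1 (Hmox1) was 344 ± 114 CPM in monocytes and 2675 ± 760.2 CPM in the members (log2 fold change 3.06 ± 0.24, adjusted p = 4.21e-07). The iron exporter Slc40a1 and the ferritins Fth1 and Ftl1 rose by 3.26 ± 0.38, 1.95 ± 0.13 and 1.52 ± 0.08, and of their list 13 of 17 genes rose and 1 fell.

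Growth factors rose in 11 of 13 cases and fell in 0 (median 1.58). Vegfa was 79.5 ± 25.3 CPM in monocytes (log2 fold change 1.53 ± 0.14, adjusted p = 1.38e-06), and Inhba and Grn rose by 2.86 ± 0.39 and 1.32 ± 0.08. Of the matrix list, 16 of 23 tested members rose, 2 fell and 5 did not pass, Fn1 rising from 1425 ± 359.9 to 3112 ± 637 CPM (log2 fold change 1.23 ± 0.12, adjusted p = 3.16e-06). Complement receptors and efferocytosis genes rose in 8 of 13 cases and fell in 2, with the apoptotic-cell receptor Mertk at 3.73 ± 0.17 and the receptors C3ar1 and C5ar1 at 3.27 ± 0.16 and 1.98 ± 0.13. Of monocyte identity genes 0 of 14 rose and 13 fell, but the monocytes were picked for Ly6c2 and Ccr2, so this count is in part set by their choice. Cebpb was among those that fell (-0.33 ± 0.10). Its call was lost under 4 of 15 alternatives, one of them that without the second wild-type library (-0.27). Within the arginine and polyamine list 5 rose and 2 fell of 13 (median 0.11), where 52.6% of all genes tested passed. The polyamine synthases Sms and Srm rose by 1.00 ± 0.13 and 0.87 ± 0.17, and Arg2 and Slc7a1 fell (-0.84 ± 0.17 and -0.53 ± 0.19).

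Inflammatory genes were not uniformly higher than in monocytes. Chemokines rose in 11 of 17 cases and fell in 0, whereas inflammatory cytokines and mediators rose in 5 and fell in 7 of 15 (median -0.50). Il1a rose (log2 fold change 2.35 ± 0.44, adjusted p = 6.61e-04), but Il1b did not pass, at 920.4, 1201 and 2079.7 CPM in the wild-type libraries and 2503, 1119 and 2258 CPM in the knockout libraries in monocytes (log2 fold change -0.71 ± 0.30, adjusted p = 0.0627). Cxcl2 did not pass either (log2 fold change 0.39 ± 0.17, adjusted p = 0.0666), and Nfkbia fell (-0.48 ± 0.10). Il1b passed, lower, under 3 of 15 alternatives, including those without the third wild-type or, at -0.98, the first knockout library, and Cxcl2 passed, higher, under 5 of 15, including that without the second knockout library (0.55). Alternative activation genes rose in 5 and fell in 4 of 11 cases, with the folate receptor Folr2 up (4.82 ± 0.35) and F13a1 down (-0.46 ± 0.11, lost under 2 of 15 alternatives). Of 19 interferon-stimulated genes tested, 2 rose, 3 fell and 14 did not pass, where 52.6% of all genes tested passed. Ifitm3 and Gbp2 fell by 1.71 and 1.07 on the log2 scale and Bst2 rose by 0.58 ± 0.10. Gbp2 lost its call in the knockout libraries alone, at -0.37. Fatty acid and eicosanoid genes rose in 9 and fell in 4 of 17 cases, and the elongase Elovl6 (-2.54 ± 0.30) and Alox5ap (-0.57 ± 0.09) were among those that fell.

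Of the inflammasome genes, 1 was higher than in monocytes and 7 were lower among 13. The one that rose was Ninj1, which ruptures the membrane of dying cells, at 491 ± 111 against 168 ± 49.8 CPM (log2 fold change 1.65 ± 0.09, adjusted p = 3.01e-08). Those that fell were Nlrp3 (-0.53 ± 0.16), Pycard (-0.53 ± 0.07), Il18 (-0.62 ± 0.16), Gsdmd (-0.37 ± 0.10), Casp4 (-0.70 ± 0.11), Nlrc4 (-1.19 ± 0.22) and Aim2 (-0.83 ± 0.12). The call was lost under 3 of 15 alternatives for Gsdmd, 2 of 11 for Nlrp3 and 1 of 15 for Il18. Immediate-early and dissociation-response genes rose in 4 and fell in 9 of 21 cases, among them Ier3 (-0.44 ± 0.12), Btg2 (-1.74 ± 0.09) and Junb (-1.32 ± 0.13).

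**Figure D4:**
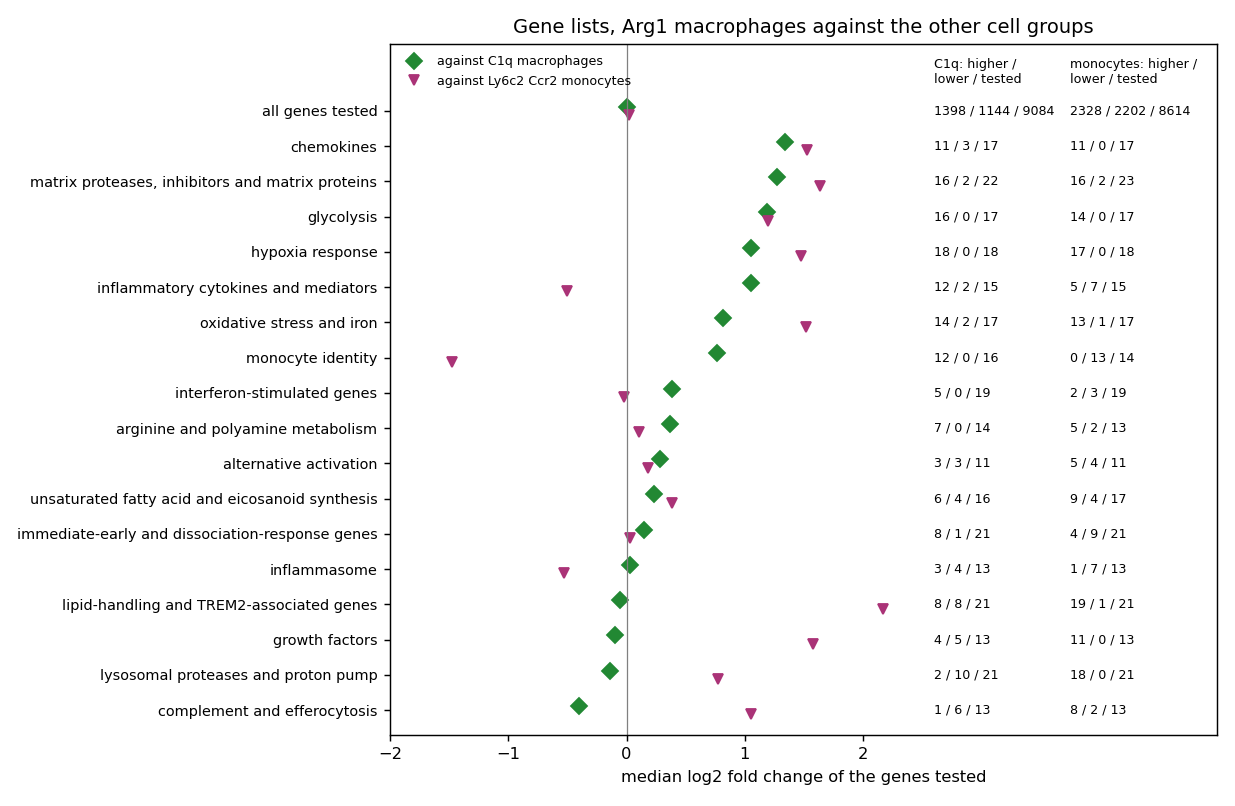
Median log2 fold change of each gene list in Arg1 macrophages against C1q macrophages (diamonds) and against Ly6c2 Ccr2 monocytes (triangles), with the numbers of genes higher, lower and tested at the right. Hypoxia, glycolysis, matrix and chemokine genes have medians above 1 in both comparisons, while the lipid-handling median is 2.17 against monocytes and -0.06 against C1q macrophages and monocyte identity genes have medians of opposite sign.

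The last comparison was that of genotype within the members, and it returned few genes. Nlrp3 itself (chr11:59541568-59566956, GRCm38) was at 92.2, 158 and 308 CPM in the wild-type libraries and 0, 0 and 0 CPM in the knockout libraries. Against a floor of 3 UMIs over the knockout members, the wild-type members were at least 338-fold higher. Of 8600 genes tested with edgeR, 8 passed (0.093%), 4 higher and 4 lower in the knockout, and 837 had an unadjusted p under 0.05. Without the third wild-type library 46 genes passed, and without the first knockout library 22 did. DESeq2 called 41, of which 1 was among the 8, and left 7 of the 8 without an adjusted p through its own filter on low counts. Of all 8600 genes, it left 7843 without one, so its count rests on far fewer genes.

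A further 4 of the 8 are sex-linked genes. Xist (chrX:103460366-103483254) and its antisense transcript Tsix were at 0 in all wild-type members and at 625 to 791 and 10.6 to 16.3 CPM in the knockout members, while Ddx3y and Eif2s3y, both on the Y chromosome, stood at 0 in all knockout members and at 26.5 to 44.9 and 18.2 to 47.2 CPM in the wild-type members. The Xist and Tsix genes overlap on opposite strands, and how strand was treated in counting is not given in the sources used here. Every wild-type library thus held RNA of male type and every knockout library RNA of female type, so that genotype and sex cannot be told apart in any genotype difference reported here. Another pair of genes, Tpm3-rs7 (chr14:113314608-113316754) and Gm8797 (chr3:5750806-5751295), stood at 189, 89.6 and 239 CPM in the wild-type libraries and 3.15, 1.25 and 2.93 CPM in the knockout libraries (adjusted p = 3.87e-04) and at 6.98, 7.70 and 4.13 CPM in the wild-type libraries and 44.7, 42.3 and 49.9 CPM in the knockout libraries (adjusted p = 0.00206). Tpm3-rs7 is by its name a related sequence of Tpm3, and whether reads shared with similar genes entered the counts of this pair was not tested. Tsix and Gm8797 fell outside the rule for named genes and were added after their values were seen.

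The remaining call was Gdf3 (chr6:122605403-122610087), a ligand of the transforming growth factor β family. It was at 3.49, 6.48 and 5.31 CPM in the wild-type libraries and 28.9, 98.4 and 73.7 CPM in the knockout libraries. The groups did not overlap, with means of 5.10 ± 1.51 and 67.0 ± 35.2 CPM (SD, n = 3; log2 fold change 3.50 ± 0.44, adjusted p = 0.0128), although the first knockout library was well below the other two. The call was lost under 2 of 12 alternatives, those without the first or the second wild-type library (3.34 and 3.77), where the adjusted p reached 0.13. C1q macrophages of the same libraries showed the gene at 7.70, 15.0 and 1.03 CPM in the wild-type libraries and 90.0, 89.5 and 114 CPM in the knockout libraries, so that its difference was seen in both cell groups.

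The markers of the label did not pass. Spp1 averaged 9232 ± 1978 CPM in wild-type and 15031 ± 3458 CPM in knockout members (log2 fold change 0.62 ± 0.22, adjusted p = 0.448). The groups did not overlap, which was so for 15.2% of all genes tested. Spp1 in free RNA moved the same way, from 1094 to 2058 CPM in wild-type and from 2554 to 3376 CPM in knockout libraries. The part of free RNA in the Spp1 difference was not tested. Mmp12 was higher in the knockout on average (log2 fold change 1.98 ± 0.71, adjusted p = 0.448) and overlapped between groups. Cxcl3 averaged 1187 ± 924 and 2158 ± 2614 CPM (log2 fold change 0.87 ± 0.83, adjusted p = 0.718) and turned lower, at -0.98, without the first knockout library. Trem2 averaged 628 ± 81.5 and 630.5 ± 219 CPM (log2 fold change -0.09 ± 0.24, adjusted p = 0.917). Il1b, the cytokine that the inflammasome matures, averaged 1380.2 ± 1504 and 1431 ± 1691 CPM, with 1 high library in each group.

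No list other than the inflammasome list, through Nlrp3, and the growth factors, through Gdf3, held a gene that passed, over 17 lists. The other inflammasome genes did not pass. Pycard stood at 274 ± 7.48 and 262 ± 22.5 CPM in wild-type and knockout members, Casp1 at 45.5 ± 9.32 and 50.9 ± 4.51 CPM, Il18 at 32.1 ± 5.44 and 34.2 ± 6.45 CPM and Gsdmd at 39.3 ± 5.44 and 29.5 ± 2.99 CPM. List medians lay between -0.23 (monocyte identity) and 0.25 (hypoxia response), with 0.01 over all genes tested. Ccl2 (chr11:82035571-82037453), a chemokine named after its values were seen, did not pass. It was at 478, 497 and 451 CPM in the wild-type libraries and 1505, 1256 and 935 CPM in the knockout libraries, so that all knockout libraries exceeded all wild-type libraries (log2 fold change 1.30 ± 0.22, adjusted p = 0.083). It passed under 3 of 14 alternatives, which were no filter on low counts, DESeq2 and the fit without the first knockout library (1.07). Chil3, a secreted chitinase-like protein of the alternative activation list, was also named after its values were seen and did not pass. It was at 76.8, 26.3 and 39.5 CPM in the wild-type libraries and 8.93, 9.96 and 5.13 CPM in the knockout libraries, lower in every knockout library (log2 fold change -2.71 ± 0.45, adjusted p = 0.083). It passed under 4 of 13 alternatives, among them the fits without the second wild-type or the first knockout library (-3.01 and -2.95). Groups without overlap were found for 1311 of the 8600 genes (15.2%).

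**Figure D5:**
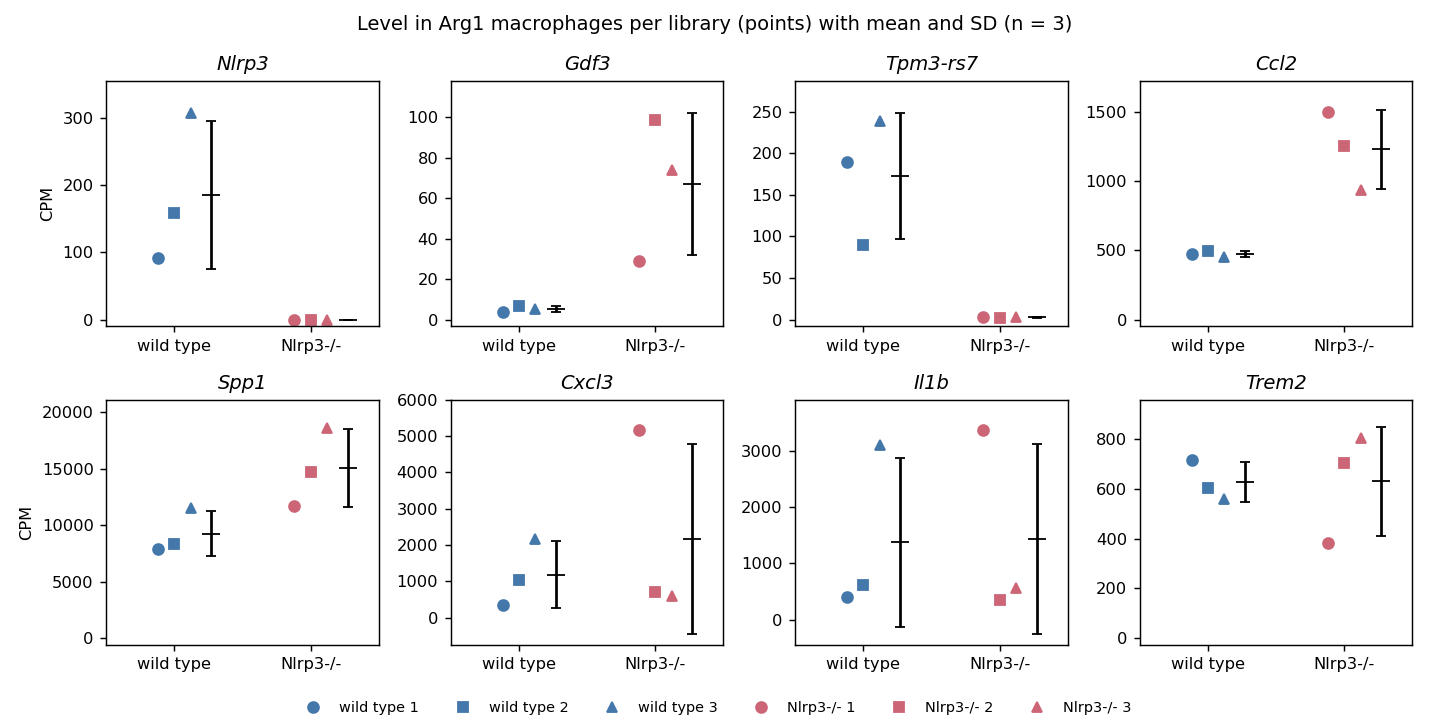
Level (CPM) of 8 genes in the Arg1 macrophages of each library, with the mean and SD of each genotype (n = 3). Nlrp3 is at 0 in the knockout libraries, Gdf3 and Ccl2 are higher in every knockout library than in any wild-type library, and Cxcl3 and Il1b are highest in 1 library of each genotype.

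Whether the genotype difference itself depended on the macrophage type was tested with an interaction term of cell group and genotype across both cell groups and all 6 libraries. Of 9690 genes, 0 passed in edgeR, 416 had an unadjusted p under 0.05, and DESeq2 called 1.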

How the data were processed

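Single-cell 3' libraries of dissociated enthesis at 7 dpi were sequenced, 3 from wild-type and 3 from Nlrp3-/- mice. The deposited files hold raw UMI counts per gene and barcode, which the authors made with Cell Ranger: the matrix headers carry version 4 and the submitters' processing notes version 2.1.1 with the mouse build mm10. All 32285 genes and all barcodes were deposited, without cell calling or annotation, at 97042713 to 134901999 UMIs per library. Groups were taken from the sample titles.

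Barcodes were filtered and the members found by the stated rule. The members and the gene lists were chosen with earlier results of these data known. No doublets were removed in the main results. The highest doublet scores (scanpy 1.11.5, Scrublet, at 0.8% per 1000 barcodes) were left out in an alternative, which took 0.971% to 7.14% of the members of a library. The libraries shared 762 barcode sequences in pairs, 0 of them among members.

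Counts were summed per library and cell group and tested with edgeR 4.0.16 (TMM, filterByExpr, quasi-likelihood F-test, Benjamini-Hochberg adjustment at 0.05), with library as a block where cell groups were compared and genotype as the only term otherwise. The genes of the rule and those setting the compared groups were left out of these tests. The fits were tested on simulated data, and the share of changed genes that they recovered is not reported here. Shares were compared with an exact two-sided permutation test over 20 assignments, and intervals are 95% Wilson intervals, which cover counting error only. CPM are relative to all UMIs of the summed barcodes.

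Genes were named by rule: up to 8 in each direction per cell-group comparison with the largest change, at least 50 CPM and the same direction in every library; up to 10 in each direction for genotype at 20 CPM without overlap; from each of 17 lists the 2 most abundant genes and up to 2 with the largest change; the inflammasome list; and the 8 genes that were higher by the most in the members with the most Arg1 than in those with the least. Predicted genes, symbols that are accession numbers and, between cell groups, mitochondrial and ribosomal protein genes were left out of the ranking. For 1 gene that this rule named, the result is not reported here. Alternatives were DESeq2 1.42.0, RLE size factors, omission of the low-count filter, thinning to 1000 UMIs, an Arg1 minimum of 6, a minimum of 2000 UMIs, single-genotype fits, a replicate term and leaving out each library. Gene positions are those of the GENCODE annotation of GRCm38.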

Additional observations from a re-analysis of the deposited data

How the results depend on the processing

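Of the 8 genes called between genotypes, thinning to 1000 UMIs left a count of 4, no filter on low counts gave 226, DESeq2 41 and leaving out 1 library 6 to 46. The replicate numbers did not pair the libraries (correlations of same-numbered deviations of -0.29, -0.06 and -0.08), and a fit with a replicate block called 9. Against C1q macrophages 934 genes passed after thinning, 1598 by DESeq2, 1450 in the wild-type and 1113 in the knockout libraries alone (fewer libraries), and 1890 to 2382 with 1 library left out. Against monocytes 1793 passed after thinning, 2620 in the knockout libraries alone and 3995 to 4581 with 1 library left out. For the interaction, no filter on low counts gave 80 and DESeq2 1. The cause of these shifts was not tested beyond the fewer genes or libraries some of them hold.

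When taken of all barcodes, the share of Arg1 macrophages averaged 2.15% in wild-type and 1.68% in knockout libraries, a difference of -0.473 percentage points. Taken of macrophage barcodes, where the means were 16.1% and 16.2%, it differed by -1.74 to 3.17 points with 1 library left out. The difference in members with Trem2 turned to -1.59 points without thinning, -2.89 at an Arg1 minimum of 6 and -2.25 to 9.09 with 1 library left out. It ranged over -7.71 to 12.8 points for Cxcl3 and -8.42 to 6.35 for C1q, and was -1.55 without thinning for Ly6c2 and Ccr2. The genotype log2 difference of Cxcl3 spanned -0.98 to 1.60 and that of Trem2 -0.31 to 0.14 with 1 library left out. Among named genes, 982 of 1006 values against C1q macrophages and 979 of 1002 against monocytes kept their call, and 0 of these changed direction, while over all genes 12 calls against C1q macrophages and 17 against monocytes had the other sign after thinning. Calls were also lost against C1q macrophages for Mmp12 in the wild-type and for Ftl1 and Klf2 in the knockout libraries alone, against monocytes for Srm in the knockout and Ier3 in the wild-type libraries alone, and between genotypes for Tsix under 4 of 12 alternatives (the replicate block and without the first or second wild-type or the second knockout library, 7.57 to 7.75). The filter on low counts left 8600 of the 32285 genes in the genotype comparison, where 16588 were tested without it.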
